A study of Mus musculus with 40 samples.

Results

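The genes described here are 10 transcription factors that mark or specify astrocytes: Sox9, Nfia, Nfib, Nfix, Hes5, Id3, Id4, Rorb, Tfcp2l1 and Zbtb20. They were chosen by symbol, as 10 of the 24060 rows of a gene count table from mouse striatum. Each symbol had 1 row, and all 10 passed the filter on low counts in every comparison.

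RNA was sequenced in 40 libraries, in 10 groups of 4. In RiboTag, a virus gives chosen cells an HA-tagged ribosomal protein, Rpl22-HA, and an HA pull-down (IP) then collects the RNA on their ribosomes, while the input is RNA of the whole lysate. Control input and Control IP came from 4 C57/BL6NTac mice whose labels do not name the virus. The counts of these IP libraries are those that the study tabulates under astrocyte IP, so the virus was taken as AAV2/5 with the gfaABC1D promoter, which is active in astrocytes. Syn input and Syn IP came from wild-type C57/BL6NTac mice, and the Syn pull-down carried the tag under hSyn1, a neuronal promoter. The labels give different animal numbers for Syn input and Syn IP. Virus was placed in the dorsal striatum, at 6 weeks of age in C57/BL6NTac mice. The SAPAP3 cohort consisted of C57/BL6J wild-type (WT) mice and C57/BL6J-Dlgap3 KO mice, which lack the postsynaptic scaffold protein SAPAP3 and are studied as a model of obsessive-compulsive disorder. Each genotype gave input and IP libraries, with virus injected at 4.5 months. The sources do not say which cells carried the tag in that cohort. Bulk WT and Bulk KO are whole-tissue RNA without a pull-down, both labelled C57/BL6NTac, and 1 animal number appears under both genotypes. The knockout is present in all cells, and none of the 10 factors was itself targeted.

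Total counts ran from 23438112 to 84109800 per library. All 10 astrocyte markers rose in Control IP over its input (median log2 fold change 2.93), and all 10 rose in the IP of the SAPAP3 cohort, with medians of 2.30 in WT and 2.37 in KO. In Syn IP 3 of 9 neuron markers rose, Ppp1r1b, Penk and Tac1, and the astrocyte markers summed to 3541 to 3861 CPM (read counts scaled to a common library total) against 6186 to 6586 CPM in Syn input. Among the astrocyte markers Gfap was higher in Syn IP (log2 fold change 0.66). In Control IP over input Tac1 alone of the neuron markers was called, and it fell (-1.09). The other neuron markers tested ran from -0.98 for Drd2 to 0.26 for Syt1. All 10 microglial markers fell in each kind of IP. Ependymal markers moved with the astrocyte genes: all 7 tested rose in Control IP, from a summed 29.3 to 42.1 CPM in input to 85.4 to 151 CPM, and in both IPs of the SAPAP3 cohort. Of 10 oligodendrocyte markers none rose in Control IP, 4 rose in WT IP and 5 in KO IP. The part of ependymal and oligodendrocyte RNA in the values below, and of neuronal RNA in Control IP, was not tested. Dlgap3 was 42.8% of the WT mean in KO input, 37.4% in KO IP and 46.0% in Bulk KO, and every KO library lay below every WT library in each (exact permutation test, two-sided p = 0.0286, the smallest that 4 against 4 allows).

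Astrocytes arise from the radial glia that first make neurons. Sox9, an HMG-box factor, takes part in the switch to glia and induces Nfia, and both then act on astrocyte genes. The nuclear factor I proteins Nfia, Nfib and Nfix bind a shared palindrome as dimers and are known from neurons as well as glia. Hes5 is a bHLH repressor switched on by Notch signalling through RBPJ. Id3 and Id4 are induced by BMP signalling and lack a DNA-binding basic region, so they hold back bHLH activators by pairing with E proteins. Rorb is an orphan nuclear receptor that is also known from layer 4 neurons of the cortex. Tfcp2l1 belongs to the CP2 family and is best known from pluripotent cells and kidney, and Zbtb20 is a zinc-finger repressor with roles in the hippocampus and in astrocyte formation.

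The sequence before the start of Hes5, Id3 and Id4 is shown because these are the factors tied to Notch and BMP signals. The 250 bases upstream of each start were read from RefSeq (GRCm38.p6) on the gene's strand. The Hes5 window lies inside the annotated gene, which begins at 154960626, so the start used for Hes5 is an internal one. Capitals mark matches, on either strand, to 6 short motifs: TGGGAA for RBPJ, TTGGCA and the palindromic nuclear factor I site for nuclear factor I proteins, ACAATG for SOX proteins, CACNAG for Hes proteins and GGCGCC for BMP-regulated SMADs.
Hes5, chr4:154960673-154960922, plus strand: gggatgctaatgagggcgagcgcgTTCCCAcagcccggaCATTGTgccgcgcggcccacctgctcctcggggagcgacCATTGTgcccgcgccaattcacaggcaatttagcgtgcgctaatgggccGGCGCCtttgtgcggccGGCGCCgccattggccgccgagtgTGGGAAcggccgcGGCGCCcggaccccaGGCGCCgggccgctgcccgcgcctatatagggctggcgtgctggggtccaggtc
Id3, chr4:136143572-136143821, plus strand: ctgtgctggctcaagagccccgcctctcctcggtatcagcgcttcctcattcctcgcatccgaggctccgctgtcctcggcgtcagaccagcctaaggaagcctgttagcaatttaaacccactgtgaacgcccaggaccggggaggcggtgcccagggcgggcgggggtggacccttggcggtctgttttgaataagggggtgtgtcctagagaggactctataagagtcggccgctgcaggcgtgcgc
Id4, chr13:48260866-48261115, plus strand: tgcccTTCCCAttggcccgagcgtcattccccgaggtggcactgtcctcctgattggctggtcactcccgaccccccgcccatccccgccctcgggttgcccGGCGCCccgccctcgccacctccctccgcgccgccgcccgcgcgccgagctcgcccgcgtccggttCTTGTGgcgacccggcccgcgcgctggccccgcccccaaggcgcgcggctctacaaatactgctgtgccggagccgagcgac
Hes5 held TGGGAA once on each strand, at -82 and -226 from its start, with 4 copies of GGCGCC and 2 of the SOX motif. Id4 held 1 each of the RBPJ, Hes and SMAD motifs, and Id3 held none of the 6. Among 32851 promoter windows of the 250 bases before a start, TGGGAA was found in 21.6%, GGCGCC in 9.59%, CACNAG in 36.7% and ACAATG in 10.7%, so a match describes the letters only. Windows were found for 8 of the 10 factors, 12 windows in all. Neither nuclear factor I motif occurred in them, against 12.3% of all windows for TTGGCA and 0.037% for the palindrome.

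In GRCm38.p6, Sox9 lies on chromosome 11 from 112782210 to 112787757 and Rorb on chromosome 19 from 18930609 to 19111196. Nfia, Nfib, Hes5 and Id3 share chromosome 4 with Dlgap3, at 29.0, 44.7, 27.7 and 8.9 Mb from it. The strand setting of the counting is not given in the sources used here, so a factor that overlaps another gene is less certain: Nfia meets E130114P18Rik, Nfix meets Lyl1 and Id4 meets A330033J07Rik on the opposite strand, and 9 annotated genes overlap Zbtb20.

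Sox9 was high in the astrocyte pull-down and in the pull-downs of the SAPAP3 cohort. In Control input it stood at 10.9, 9.41, 11.6 and 13.4 CPM and in Control IP at 99.6, 87.2, 110.1 and 111 CPM. In Syn input it stood at 16.2, 16.4, 17.7 and 16.5 CPM and in Syn IP at 10.2, 10.1, 8.13 and 9.37 CPM. The groups of each pair do not overlap, and IP was higher in Control and lower in Syn. WT IP held 92.8, 106, 107 and 110.4 CPM against 29.0, 25.5, 24.3 and 26.3 CPM in WT input. KO IP held 119, 153, 94.9 and 81.5 CPM against 26.4, 36.3, 20.3 and 19.4 CPM in KO input. The 3 IP groups other than Syn IP overlapped one another, with means of 102 ± 11.1 CPM (SD, n = 4) in Control, 104 ± 7.70 in WT and 112 ± 31.4 in KO.

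For Sox9, Nfia, Id3, Rorb, Tfcp2l1 and Zbtb20, each of the 12 libraries of those 3 IP groups lay above each of the other 28. Syn IP had the lowest mean for 5 factors (Sox9, Hes5, Id3, Tfcp2l1 and Zbtb20), Control input for 4 (Nfia, Nfib, Nfix and Rorb) and Syn input for Id4. Nfib stood at 47.9 ± 3.08 CPM in Control input and Rorb at 29.0 ± 1.95 CPM. Rorb was 64.2 ± 17.5 CPM in Syn IP and 109 ± 20.1 CPM in Syn input, both above Control input.

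**Figure D1:**
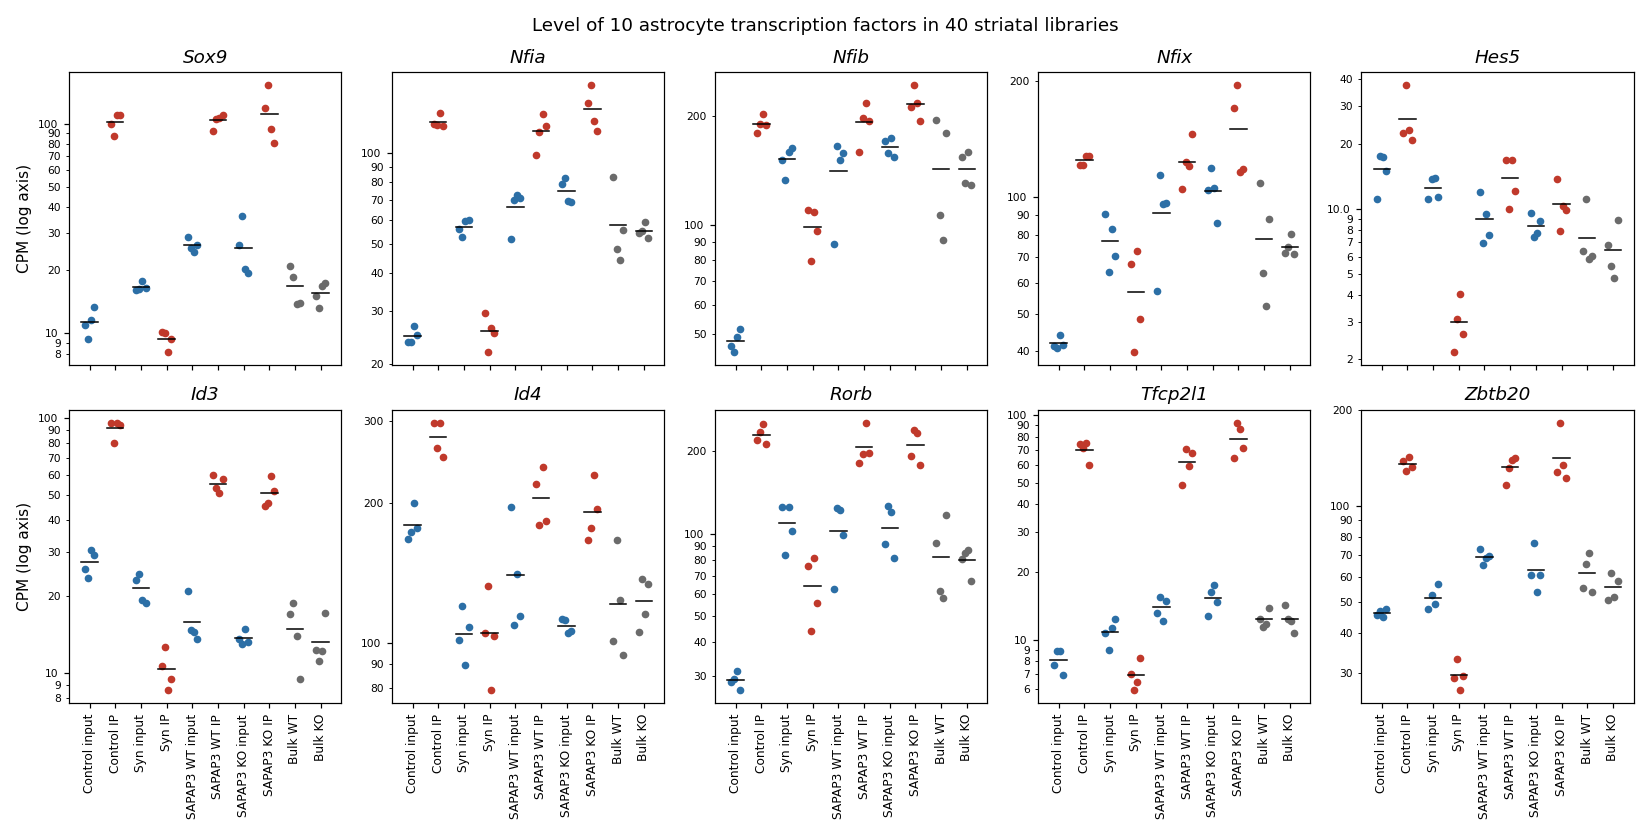
CPM of each factor on a log axis in the 10 groups. Each point is a library, black lines are group means, red marks IP, blue input and grey bulk tissue. Sox9 in Control IP (87.2 to 111 CPM) stands above all input and bulk libraries, whereas Id4 in Syn IP (79.2 to 132 CPM) overlaps Syn input (89.4 to 120.3 CPM).

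Per kilobase of merged exon (FPKM), the 2 Id genes were the most abundant of the 10 in Control IP. Id3 stood at 96.0 ± 8.02 FPKM and Id4 at 70.0 ± 5.96 FPKM, with no overlap. Sox9 (24.6 ± 2.67 FPKM) and Rorb (24.3 ± 1.78 FPKM) came next and overlapped each other. Hes5 (15.6 ± 4.63 FPKM) overlapped Sox9, Nfix (15.5 ± 0.501 FPKM) and Nfib (12.1 ± 0.608 FPKM). Nfix, Nfib, Nfia, Tfcp2l1 and Zbtb20 followed one another without overlap. In Control input the order began with Id4 (45.3 ± 3.65 FPKM) and Id3 (28.6 ± 3.27 FPKM), and Tfcp2l1 was last (0.872 ± 0.105 FPKM).

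Which of these factors is enriched on astrocyte ribosomes was answered by Control IP over Control input. A gene was called when its adjusted p was under 0.05 and its log2 fold change past 1 (edgeR quasi-likelihood test, Benjamini-Hochberg adjustment over all genes tested). By this rule 8 of 10 rose, where 13.4% of 15476 genes rose. The 10 were chosen as astrocyte factors with earlier results of these data known, so this count is a description. The median log2 fold change was 2.09 over the 10 and -0.02 over all genes. Sox9 rose most, by 3.40 (SE 0.10, adjusted p = 1e-10, edgeR), and ranked 4 among all genes. Tfcp2l1 rose by 3.33 (SE 0.10), from 7.68, 8.91, 8.90 and 6.92 CPM to 74.0, 71.4, 74.8 and 60.1 CPM. Rorb rose by 3.21 (SE 0.07), from 28.6, 29.2, 31.5 and 26.8 CPM to 220.5, 235, 251 and 213 CPM.

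The 3 nuclear factor I genes rose less than Sox9, with no overlap between IP and input. Nfia rose by 2.57 (SE 0.05), from 23.7, 23.7, 26.8 and 25.0 CPM to 124, 124, 135 and 123 CPM. Nfib rose by 2.21 (SE 0.05), from 44.6 to 51.6 CPM to 179.5 to 203 CPM. Nfix rose by 1.79 (SE 0.04), from 40.8 to 44.1 CPM to 121 to 128 CPM. Zbtb20, the zinc-finger repressor, was close to Nfix at 1.77 (SE 0.04).

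The 2 Id genes had unlike changes. Id3 rose by 1.97 (SE 0.08), from 25.7, 23.7, 30.5 and 29.1 CPM to 96.0, 80.1, 95.9 and 93.9 CPM. Id4 stood at 168, 173, 200.3 and 177 CPM in input already and at 297, 263, 297 and 252 CPM in IP. Every IP library of Id4 exceeded every input library, but its log2 fold change of 0.85 (SE 0.07, adjusted p = 5.41e-07, edgeR) was under the limit. Hes5 stood at 11.1, 17.5, 17.4 and 14.9 CPM in input and 22.5, 37.4, 23.1 and 20.9 CPM in IP. Its log2 fold change of 0.99 (SE 0.19, adjusted p = 0.000627, edgeR) was just under the limit, and it passed with DESeq2 (1.01).

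In the neuron pull-down none of the 10 rose past the limit and 1, Hes5, fell, where 0.42% of genes rose and 15.8% fell. Hes5 fell by 1.87 on the log2 scale (SE 0.18, adjusted p = 8.43e-06, edgeR), from 11.1, 13.8, 13.9 and 11.3 CPM to 2.16, 3.10, 4.02 and 2.62 CPM. The median of the 10 was -0.58, against -0.0023 over all genes. A further 7 factors had an adjusted p under 0.05 within the limit of 1: Nfia (-0.94), Id3 (-0.85), Sox9 (-0.62), Zbtb20 (-0.60), Rorb (-0.55), Tfcp2l1 (-0.44) and Nfib (-0.41). With library totals as the only scaling, which moves the median of all genes to -0.21, Nfia (-1.15) and Id3 (-1.05) passed the limit too.

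Nfix and Id4 did not pass the test in Syn IP, and their groups overlap. Nfix stood at 90.7, 64.2, 83.0 and 70.6 CPM in input and 67.2, 39.8, 72.6 and 48.4 CPM in IP (-0.23, SE 0.19, adjusted p = 0.301, edgeR). Id4 stood at 101, 120.3, 89.4 and 108 CPM in input and 105, 132, 79.2 and 104 CPM in IP (0.21, SE 0.13, adjusted p = 0.196, edgeR). The 95% interval of Id4 ran from -0.10 to 0.51.

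Control IP and Syn IP were then compared directly. All 10 factors were higher in Control IP, where 19.4% of genes were. Sox9 (3.49, SE 0.09), Tfcp2l1 (3.40, SE 0.11), Id3 (3.21, SE 0.11) and Hes5 (3.18, SE 0.24) had the largest log2 fold changes of the 10. Nfib had the smallest, 1.00 (SE 0.10), from 79.8 to 111 CPM in Syn IP to 179.5 to 203 CPM in Control IP. That call was lost with total counts (0.95), with no filter (0.99) and without Syn IP replicate 2 (0.91), Syn IP replicate 4 (0.98) or Control IP replicate 3 (0.98). Xist was at most 0.0405 CPM in Control libraries and 23.5 to 281 CPM in Syn libraries, so the sex of the mice and their cohort differ along with the tagged cells, and their effects on this comparison cannot be told apart.

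The difference of the 2 IP-over-input changes sets each pull-down against its own cohort. All 10 factors had a larger change in Control than in Syn, where 34.3% of genes did. The difference ran from 0.64 (SE 0.16, adjusted p = 0.00213, edgeR) for Id4 to 4.01 (SE 0.13) for Sox9. Tfcp2l1 (3.77) and Rorb (3.76) followed Sox9. This comparison uses the same libraries as those above.

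**Figure D2:**
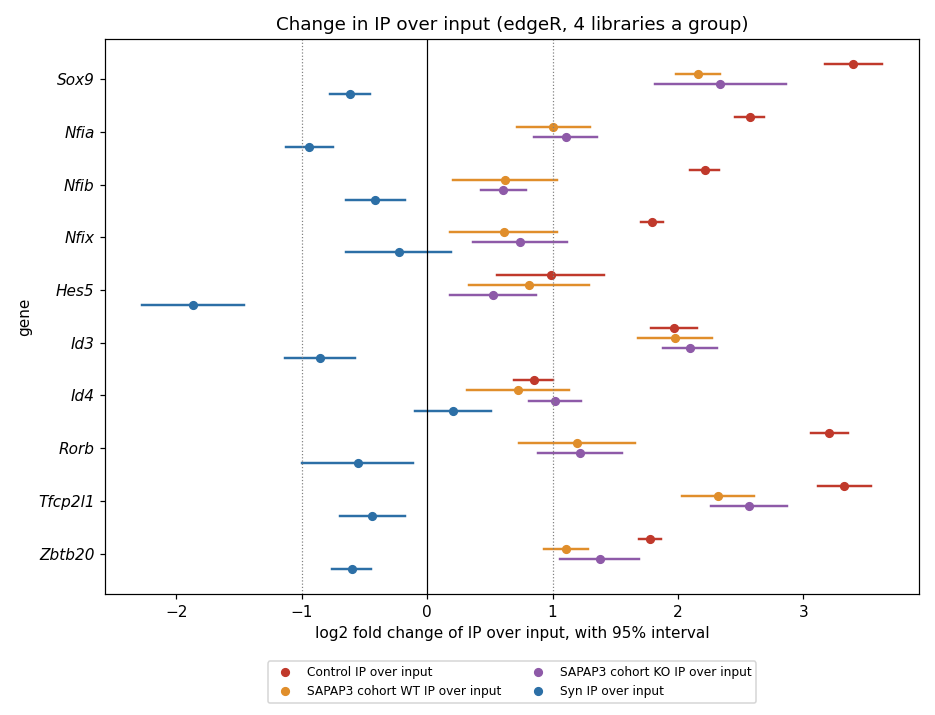
Log2 fold change of IP over input for each factor, with its 95% interval, in Control, Syn and the 2 genotypes of the SAPAP3 cohort (4 libraries a group). Dotted lines mark the limit of 1. Sox9 reaches 3.40 in Control and 2.16 in SAPAP3 WT, and Hes5 is at -1.87 in Syn.

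In SAPAP3 cohort WT mice 6 of 10 factors rose in IP over input, where 10.9% of genes did, with a median of 1.06. Tfcp2l1 rose by 2.32 (SE 0.13), from 13.2, 15.5, 12.1 and 14.9 CPM to 49.1, 70.5, 59.1 and 67.5 CPM. Sox9 rose by 2.16 (SE 0.08) and Id3 by 1.98 (SE 0.13). The calls for Rorb (1.19, SE 0.21), Zbtb20 (1.11, SE 0.08) and Nfia (1.01, SE 0.13) were nearer the limit. Hes5 (0.81), Id4 (0.73), Nfib (0.62) and Nfix (0.61) were under it. Nfia was no longer called without WT input replicate 1 (0.91), WT IP replicate 3 (0.92) or WT IP replicate 4 (0.98).

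In KO mice 7 of 10 rose, where 12.3% of genes did, with a median of 1.16. Tfcp2l1 (2.57, SE 0.14), Sox9 (2.34, SE 0.24) and Id3 (2.10, SE 0.10) again came first. Zbtb20 (1.38), Rorb (1.22), Nfia (1.10) and Id4 (1.02) also passed. Nfix (0.74), Nfib (0.61) and Hes5 (0.53) were under the limit. Id4 was not called without KO IP replicate 3 (0.92), nor Nfia without KO IP replicate 2 (0.999835).

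For 7 of the 10 factors the IP levels of Control and SAPAP3 cohort WT overlapped while the inputs did not: Sox9, Nfia, Nfib, Nfix, Rorb, Tfcp2l1 and Zbtb20. All 7 were higher in WT input than in Control input. Nfib stood at 179.5, 190.2, 203 and 189 CPM in Control IP and 159.5, 198, 218 and 194 CPM in WT IP. In input it stood at 46.4, 44.6, 49.1 and 51.6 CPM in Control and 88.6, 165, 152 and 158 CPM in WT. Rorb held 213 to 251 CPM in Control IP and 181 to 254 CPM in WT IP, against 26.8 to 31.5 CPM in Control input and 62.7 to 124 CPM in WT input. Tfcp2l1 held 6.92 to 8.91 CPM in Control input and 12.1 to 15.5 CPM in WT input. For Hes5 and Id4 the inputs overlapped and the IPs did not, and Id3 overlapped in neither. Id3 stood at 23.7 to 30.5 CPM in Control input, 13.6 to 20.9 CPM in WT input, 80.1 to 96.0 CPM in Control IP and 50.8 to 59.9 CPM in WT IP. The cohorts were not tested against each other.

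WT input replicate 1 stood apart in the nuclear factor I genes and in Rorb. It held 52.1 CPM of Nfia against 70.1 to 72.5 CPM in the other WT inputs, 88.6 CPM of Nfib against 152 to 165 CPM, and 62.7 CPM of Rorb against 98.7 to 124 CPM. It was high in Id4 (196 CPM against 109 to 140.4 CPM), Id3 (20.9 against 13.6 to 14.7) and Hes5 (11.9 against 6.94 to 9.41). The same library was low in the sum of 7 genes known from cortical neurons, a list chosen after these values were seen. They were Slc17a7, Neurod6, Tbr1, Emx1, Mef2c, Lamp5 and Cux2. Their sum was 423 CPM there and 1218 to 1381 CPM in the other WT inputs. Slc17a7 alone was 59.3 CPM there and 427 to 560 CPM in the others. The genes of the list did not all move alike. In Control IP over input Tbr1 stood at 1.30 and Lamp5 at -1.15 on the log2 scale. The part of other cells in the sum was not tested. Control inputs held 384 to 439 CPM of the 7 genes and Syn inputs 1277 to 1688 CPM. With both libraries of that mouse left out, 6 of 10 factors rose in WT IP.

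The 8 bulk libraries ranged from 592 to 1637 CPM in the summed cortical genes, and the log2 level of each factor was related to the log2 of that sum. For Nfib Pearson r was 0.965 (exact permutation p = 4.96e-05, adjusted over 10 relations 0.000496) and Spearman rho was 0.976 (exact permutation p = 0.000397, adjusted 0.00198), and r was 0.890 without the 2 farthest libraries. Rorb (r = 0.924, rho = 0.976), Nfix (r = 0.877, rho = 0.952) and Nfia (r = 0.756, rho = 0.905) also rose with it, with exact permutation p for r of 0.000149, 0.000645 and 0.0122 (adjusted 0.000744, 0.00215 and 0.0244) and for rho of 0.000397, 0.00114 and 0.00456 (adjusted 0.00198, 0.0038 and 0.0114). Without the 2 farthest libraries r was 0.845 for Rorb, 0.708 for Nfix and 0.559 for Nfia. Zbtb20 ran the other way (r = -0.881, exact permutation p = 0.00516, adjusted 0.0129, rho = -0.762, p = 0.0368, adjusted 0.0613), and its r was -0.548 without the 2 farthest. Id4 did not pass by r (-0.748, adjusted exact permutation p = 0.0584) but did by rho (-0.810, adjusted exact permutation p = 0.0436). Sox9 (r = 0.0821, adjusted exact permutation p = 0.845) passed by neither, nor did Hes5, Id3 and Tfcp2l1. The relation was noticed in these libraries before it was tested, so its p-values only describe these 8 libraries. The 4 libraries of a genotype are too few to test apart, and 1 animal number is shared between the genotypes. Libraries kept the exact order of the relation in Bulk WT for Rorb and Zbtb20 and in Bulk KO for Nfib. For the other factors, Nfia and Nfix among them, they did so in neither genotype. In bulk tissue fewer cells of a type and less RNA per cell cannot be told apart.

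**Figure D3:**
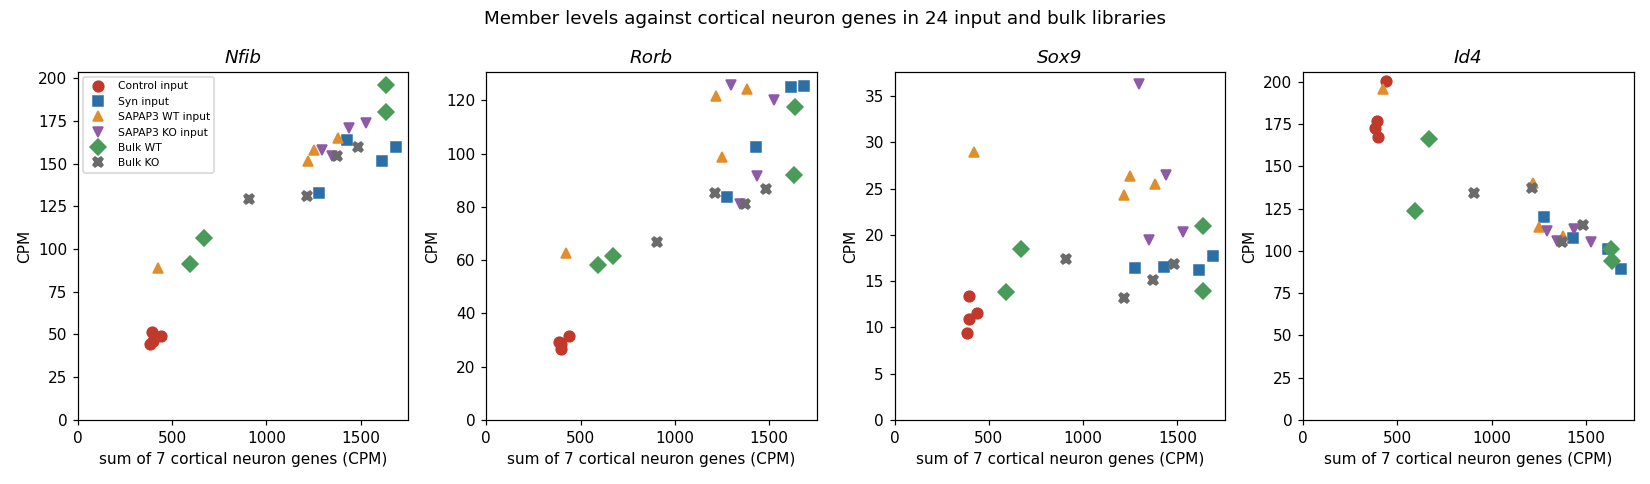
CPM of Nfib, Rorb, Sox9 and Id4 against the summed CPM of 7 cortical neuron genes in the 24 input and bulk libraries, a point per library and a symbol per group. Nfib and Rorb are higher where the cortical sum is higher, and Control inputs (384 to 439 CPM of cortical genes) lie at its low end.

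Whether loss of SAPAP3 goes with a change in these factors was asked in input, IP and bulk RNA. In input no factor differed at an adjusted p under 0.05 by edgeR, where 0.00641% of genes differed, nor by DESeq2 or limma-voom. At an unadjusted p under 0.05 there were 0 factors by edgeR, 0 by limma-voom and 1 by DESeq2. Id4 had the largest log2 difference of the 10, -0.33 (95% interval -0.67 to 0.02, adjusted p = 0.735, edgeR), with 113, 112, 105 and 106 CPM in KO and 196, 109, 140.4 and 114 CPM in WT. The groups overlap, and the highest WT library is the one low in cortical genes. The highest upper bound was that of Nfix, at 0.64.

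In IP no factor differed by edgeR, DESeq2 or limma-voom, where 0.0263% of genes differed by edgeR. Tfcp2l1 was the 1 factor with an unadjusted p under 0.05 by edgeR, and DESeq2 and limma-voom gave 1 each. It stood at 64.4, 92.3, 86.3 and 71.4 CPM in KO and 49.1, 70.5, 59.1 and 67.5 CPM in WT (0.37, 95% interval 0.05 to 0.69, adjusted p = 0.999, edgeR). The groups overlap. Hes5 stood at 13.8, 7.91, 10.3 and 9.91 CPM in KO and 16.9, 10.002, 16.8 and 12.1 CPM in WT (-0.39, 95% interval -0.83 to 0.05). Nfia, Nfib and Nfix had KO means of 118%, 113% and 121% of WT, with overlapping groups.

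In bulk tissue 0% of genes differed by edgeR, with 792 at an unadjusted p under 0.05, 0 called by limma-voom and 18 by DESeq2. Dlgap3 was thus not called by edgeR there either, although Bulk KO held 46.0% of its WT mean. A change of that size in a factor could therefore be missed by edgeR in bulk. None of the 10 factors had an unadjusted p under 0.05 by edgeR, DESeq2 or limma-voom. Xist was above 1 CPM in 2 of 4 Bulk WT libraries and in 0 of 4 Bulk KO libraries. In the SAPAP3 cohort it was so in 1 WT input and 2 KO inputs, and in 1 WT IP and 2 KO IP libraries. The sex of the mice was thus not balanced between genotypes. With an Xist covariate no factor was called in input, IP or bulk. Nfib stood at 196, 107, 91.2 and 179.9 CPM in WT and 155, 131, 159 and 129 CPM in KO, so the WT libraries enclosed the KO libraries. The log2 fold changes ran from -0.20 for Hes5 to 0.0016 for Id4, and the interval of Hes5, the widest, ran from -0.74 to 0.34. The IP-over-input change differed by genotype for 0 of 10 factors and for 0% of 16059 genes by edgeR, with 203 genes and 0 factors at an unadjusted p under 0.05 and 1 gene called by DESeq2.

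**Figure D4:**
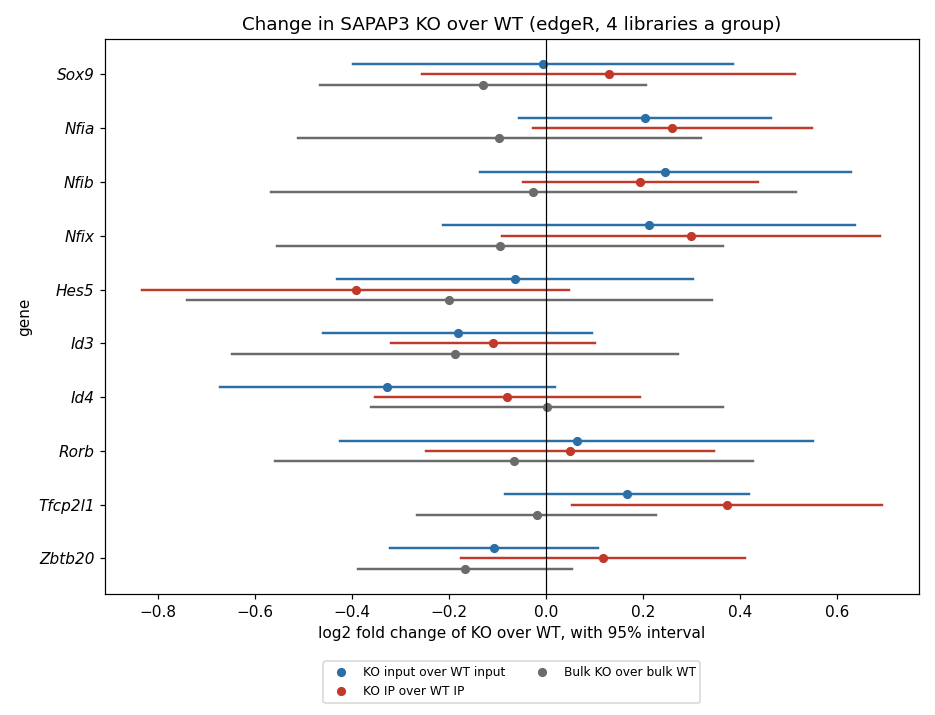
Log2 fold change of SAPAP3 KO over WT for each factor in input, IP and bulk tissue, with its 95% interval (4 libraries a group). Of the 30 intervals, the one that leaves out 0 is that of Tfcp2l1 in IP (0.37), whose adjusted p was 0.999.

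Within the nuclear factor I family, the shares of Nfia and Nfic did not overlap between IP and input in Control, Syn or either genotype of the SAPAP3 cohort. Shares are each gene's part of the summed FPKM of Nfia, Nfib, Nfic and Nfix, Nfic being the family member outside the 10. In Control input Nfic made up 36.1% ± 0.632 (SD, n = 4) and in Control IP 18.5% ± 0.749, with no overlap. The level of Nfic itself was higher in Control IP, at 62.0 CPM against 42.1 CPM in input (log2 fold change 0.78, SE 0.05). Its share fell because the other family members rose more. Nfia went from 11.3% ± 0.260 to 20.1% ± 0.466 and Nfib from 19.4% ± 0.781 to 26.9% ± 0.717, both without overlap. Nfix held 33.2% ± 0.740 in input and 34.5% ± 0.627 in IP, and its ranges overlapped. Syn went the other way, with Nfia at 13.3% ± 1.00 in input and 8.80% ± 0.934 in IP and Nfic at 24.4% ± 1.68 and 28.4% ± 1.24, while Nfib overlapped (31.4% ± 2.35 and 29.8% ± 2.04). In the SAPAP3 cohort Nfia went from 14.0% ± 1.27 to 18.99% ± 1.24 in WT and from 14.0% ± 0.793 to 19.4% ± 0.867 in KO, and Nfic from 27.5% ± 3.10 to 19.1% ± 2.23 and from 25.1% ± 1.33 to 17.7% ± 1.77. In that cohort Nfib held 25.9% ± 1.92 in WT input and 27.4% ± 2.06 in WT IP, and 27.4% ± 2.46 in KO input and 27.1% ± 3.44 in KO IP, with overlapping ranges in both genotypes, unlike in Control. On shares of CPM, which are not per length, Nfic went from 26.9% in Control input to 12.3% in Control IP. On that unit Nfix went down, from 26.8% in Control input to 24.8% in Control IP, without overlap, unlike on FPKM. These shares were compared by their ranges and not by a test.

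**Figure D5:**
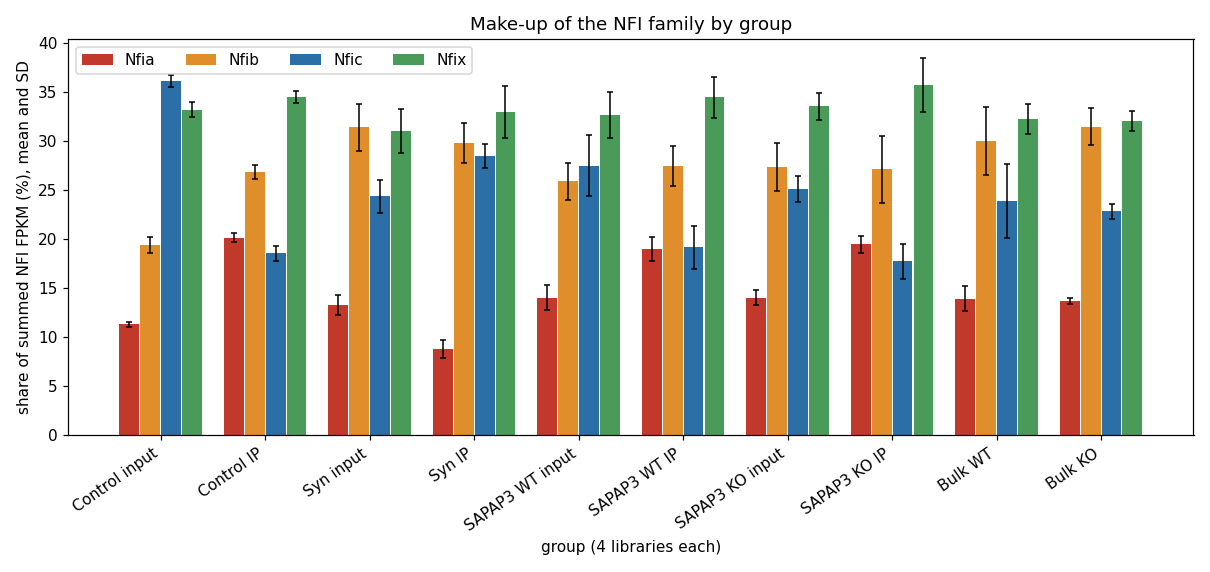
Share of each nuclear factor I gene in the summed FPKM of the family (percent, mean with SD, 4 libraries a group). Nfic is 36.1% of the family in Control input and 18.5% in Control IP, while Nfia goes from 11.3% to 20.1%. The level of Nfic itself was higher in Control IP (62.0 CPM) than in Control input (42.1 CPM).

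The genes whose level ran most like each factor over the 40 libraries were found by Pearson correlation of log2(TMM-scaled CPM + 1) among 11752 genes. For Sox9 they were Atp1b2 (r = 0.991), a sodium pump beta subunit, Tor1aip1 (0.986) and Abca1 (0.985), a cholesterol exporter. For the nuclear factor I genes they were Enah for Nfia (0.984), Tcp11l1 for Nfib (0.971) and Asap2 for Nfix (0.960). Hes5 ran most like Zfp219 (0.887), Id3 like Als2cl (0.976) and Id4 like Rcan3 (0.960). Rorb ran most like Tcf4 (0.979), an E protein, Tfcp2l1 like Soat1 (0.992) and Zbtb20 like Efcab14 (0.990). All 40 points share the contrast of IP and input, so these values are a description.

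Counts for 7 related gene lists are set beside the shares of all genes tested. In Control IP 13.4% of genes rose and 13.5% fell, in Syn IP 0.42% rose and 15.8% fell, in WT IP 10.9% rose and 12.1% fell, and in KO IP 12.3% rose and 11.5% fell. Of 13 family relatives of the factors, 4 rose in Control IP over input (Hes1, Id1, Id2 and Rora), with a median of 0.78. Id2, which also binds E proteins, had the highest value at 2.23 (SE 0.05) and Ubp1, a CP2 relative of Tfcp2l1, the lowest at -0.92 (SE 0.04). In Syn IP 2 of 13 fell, Sox10, a factor of the oligodendrocyte lineage, and Id1, and none rose, a count close to the 15.8% of all genes that fell. In the SAPAP3 cohort 3 rose in WT IP and 4 in KO IP.

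Of 20 other glial and progenitor transcription factors, 14 rose in Control IP and none fell, with a median of 1.80. Gli2, a mediator of hedgehog signalling, had the highest value at 3.16 (SE 0.12), and Nr2f2, a nuclear receptor, the lowest at 0.0056 (SE 0.16). In Syn IP 9 of 20 fell and none rose, and Gli1 fell by 3.09 (SE 0.20). In WT IP of the SAPAP3 cohort 13 rose and in KO IP 15.

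Of 13 Notch genes, followed because Notch induces Hes5, 8 rose in Control IP, with a median of 1.58. They were the receptors Notch1, Notch2 and Notch3, the coactivator Maml2, the receptor-modifying enzyme Lfng and the targets Nrarp, Hes1 and Hey2. Notch1 was highest at 2.54 (SE 0.05) and the ligand Dll1 lowest at -0.57 (SE 0.11). In Syn IP 4 of 13 fell (Notch1, Maml2, Lfng and Nrarp), Nrarp by 1.87 (SE 0.12), and 7 rose in each IP of the SAPAP3 cohort.

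Of 15 BMP genes, 6 rose in Control IP and 1, the ligand Bmp4, fell by 1.07 (SE 0.21). Bmpr1b, a type I receptor, was highest at 2.41 (SE 0.08). In Syn IP 3 of 15 fell (Bmp4, Smad6 and Id1), near the 15.8% of all genes that did. In WT IP 5 rose and Bmp4 fell, and in KO IP 5 rose. Of the 3 E proteins, Tcf4 rose in Control IP by 2.00 (SE 0.04), while Tcf12 (0.50) and Tcf3 (0.20) were under the limit.

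Of 8 genes known as targets of Sox9 or nuclear factor I, 7 rose in Control IP and in both IPs of the SAPAP3 cohort. Gfap, the astrocyte filament protein, was highest in Control IP at 3.25 (SE 0.18), and Apcdd1, a Wnt inhibitor, lowest at 0.67 (SE 0.07). In Syn IP 4 of 8 fell (Apcdd1, Zcchc24, Fabp7 and S100b). Several of these genes are astrocyte markers as well. Of 10 transcription factors listed for neurons, 3 fell in Control IP (Rarb, Ebf1 and Meis2), where 13.5% of all genes fell, with a median of -0.51. None passed in Syn IP, where the median was 0.54, and Neurod2 alone fell in WT IP and in KO IP. Meis2 fell by 1.31 (SE 0.04) and Neurod2 was highest in Control IP at 0.77 (adjusted p = 0.0597, edgeR). Slc17a7, of the cortical list, stood at 0.83 in the same comparison. No gene of these 7 lists was called between KO and WT in input, IP or bulk by edgeR.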

How the data were processed

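The authors deposited 1 table of raw read counts per gene; per the labels, reads were aligned to mm10 with STAR and counted with HTSeq, and versions, annotation and the counting strand are not given in the sources used here. The labels name a TruSeq Stranded kit with Ribo-Zero Gold, whereas the study's methods name another kit. Groups follow the labels, with replicate numbers in title or accession order. Within a group each library carries its own animal number. The labels do not say that libraries of a group were prepared apart, so p-values measure the spread between these libraries.

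Counts as deposited were filtered with filterByExpr, scaled by TMM and tested with edgeR 4.0.16 (R 4.3.3) by its quasi-likelihood test, with Benjamini-Hochberg adjustment over all genes tested. IP comparisons were called at an adjusted p under 0.05 and a log2 fold change past 1, genotype comparisons and differences of changes at an adjusted p under 0.05. CPM and FPKM were computed here from total counts and merged exon lengths, matched for 99.3% of genes. DESeq2 1.42.0, limma 3.58.1 and other alternatives were run, and the scripts were tested on simulated data. The members and gene lists were chosen with earlier results of these data known. The cortical list, from which 1 gene is not reported here and was left out, the cortical covariate and leaving out WT mouse 1 were chosen after seeing these data. All 10 factors are named; of other lists, the highest and lowest gene of a comparison, while called genes in counts of 9 or fewer were named after their values were seen.

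Same-numbered input and IP libraries came from 1 animal in Control and in both genotypes of the SAPAP3 cohort, and their deviations from the group means correlated by at least 0.245 in every pair. In Syn the animal numbers differ between input and IP, but every pair correlated by at least 0.475.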

Additional observations from a re-analysis of the deposited data

Results flagged for a closer look

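A single library lay far from the other 3 of its group in 6 of 100 sets of a factor and a group, where chance gives about 1 in 20. Nfia stood at 135 CPM in the highest Control IP library and at 52.1 CPM in the lowest WT input library. Hes5 stood at 37.4 CPM in the highest Control IP library and at 11.05 CPM in the highest Bulk WT library. Id3 stood at 80.1 CPM in the lowest Control IP library and at 20.9 CPM in the highest WT input library. Control IP replicate 2 was the library apart for both Hes5 and Id3, and WT input replicate 1 for both Nfia and Id3.

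The IP-over-input change differed between Control and Syn for all 10 factors (edgeR, interaction term). The difference on the log2 scale was 4.01 for Sox9, and for the others Nfia 3.51, Nfib 2.63, Nfix 2.02, Hes5 2.85, Id3 2.82, Id4 0.64, Rorb 3.76, Tfcp2l1 3.77 and Zbtb20 2.38. The tagged cells, the sex of the mice and their cohort differ together, and their effects on it cannot be told apart.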

How the results depend on the processing

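The number of factors called kept within 1.5 times its main value in every comparison under every alternative run, except that in Syn IP over input 3 factors fell with total counts and 2 with genes above 5 FPKM, against 1. Leaving out single libraries gave 8 to 9 factors in Control, 1 in Syn, 5 to 6 in WT and 6 to 7 in KO for IP over input, 9 to 10 for Control IP over Syn IP, 10 for the difference of changes and 0 for each genotype comparison. Of 1772 alternative values of single factors 1682 kept direction and side of the threshold, 16 lost a call, 12 gained one and 62 changed sign, the last in 24 pairs of factor and comparison, none of them called. With the replicate block, 60 of 60 factor values kept their call, and the counts were 8, 1, 6, 7, 10 and 0. Total counts moved the split of higher and lower genes from 2072 and 2085 to 1656 and 2789 in Control, from 68 and 2567 to 15 and 3105 in Syn, from 1703 and 1887 to 1396 and 2434 in WT and from 1915 and 1798 to 1554 and 2450 in KO. Hes5 in Control was called with DESeq2 (1.01), relative log expression size factors (1.00), no filter (1.02) and all 40 libraries in 1 fit (1.06). Total counts lost the calls of Nfia (0.83) and Zbtb20 (0.93) in WT and of Nfia (0.90) and Id4 (0.82) in KO. The FPKM minimum lost Nfia in WT (0.95) and Id4 in KO (0.95), and removes Zbtb20 from testing in every comparison. In Syn IP over input it also removes Sox9, Nfia and Tfcp2l1. It removes Sox9, Nfia, Tfcp2l1 and Hes5 in bulk, and Tfcp2l1 in KO input over WT input.

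Changes of sign between KO and WT were small. With the cortical covariate they were, in input, Sox9 0.062, Nfib -0.00033, Nfix -0.026, Hes5 0.13 and Rorb -0.18, and in IP Sox9 -0.037, Id3 0.0062 and Id4 0.073. With the Xist covariate Id4 was 0.0091 in IP and -0.042 in bulk. In bulk, Nfib was 0.053 with limma-voom and 0.00065 with total counts, Tfcp2l1 0.0038 with total counts, and Id4 -0.0016 with DESeq2 and with relative log expression size factors. With single libraries left out, the ranges that crossed 0 were, in input, Sox9 -0.23 to 0.11, Hes5 -0.17 to 0.083 and Rorb -0.12 to 0.17. In IP they were Sox9 -0.070 to 0.26, Id4 -0.18 to 0.0035, Rorb -0.029 to 0.16 and Zbtb20 -0.037 to 0.19. In bulk they were Sox9 -0.21 to 0.0077, Nfia -0.20 to 0.15, Nfib -0.19 to 0.18, Nfix -0.24 to 0.12, Hes5 -0.38 to 0.047, Id4 -0.10 to 0.17, Rorb -0.20 to 0.16 and Tfcp2l1 -0.11 to 0.053. For the difference of IP-over-input changes between genotypes they were Sox9 -0.063 to 0.36, Nfia -0.051 to 0.17, Nfib -0.14 to 0.13, Nfix -0.074 to 0.27, Id3 -0.065 to 0.17 and Rorb -0.11 to 0.17. The causes were not tested. All 40 nuclear factor I shares moved by more than 1 SD when computed from CPM in place of FPKM. Groups of 4 leave intervals for KO over WT whose upper bounds reach 0.64 in input, 0.69 in IP and 0.52 in bulk on the log2 scale. The lower bounds of Id4 in input and of Hes5 in IP and in bulk, given above, lie further from 0 than these.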
